A study of Mus musculus with 16 samples.

Results

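Naive CD8+ T cells that carry much CD5 on their surface were compared with naive CD8+ T cells that carry little, by RNA sequencing of 4 CD5hi and 4 CD5lo libraries, 8 of the 16 libraries in the study. Both groups came from lymph nodes of C57BL/6 mice and were sorted as CD8+ cells in a CD25- CD62Lhi CD44lo gate, so both had been depleted of cells with the surface profile of activated or memory cells. CD5hi is the third of the gated cells with the most surface CD5 and CD5lo the third with the least, and the cells between them were not sequenced. No age, sex or treatment is given for the mice. The design text calls the 4 replicates of a group biological, but no label says whether they came from separate mice, pools or days, so the p-values measure the spread between these libraries. Each library was also run as 2 technical replicates, which stand together in 1 column of counts. The other 8 libraries hold CD4+ cells sorted the same way and entered the model that estimates the spread of each gene.

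CD5 is a surface receptor that restrains signalling through the T cell receptor. Its level is set in the thymus by how strongly a cell's receptor binds self peptides on MHC molecules, and naive cells keep it by repeated contact with such ligands in lymphoid tissue. CD5 level on naive T cells is therefore widely used as a reporter of self-reactivity, and the comparison asks which genes accompany it within the naive CD8 pool. In bulk libraries, a difference in RNA per cell and a difference in the share of cells that hold the RNA cannot be told apart.

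The 8 libraries held between 71447252 and 93418385 counts. Levels are given as CPM, the counts of a gene per 1000000 counts of its library after scaling between libraries, always for replicates 1 to 4 in that order. The summed level of 9 CD8 T cell markers was 4635 to 5937 CPM and erythroid globin genes were at 0 in all 8 libraries. The erythroid gene Alas2 was at 4.61 CPM in CD5lo replicate 3, 2.935 CPM in CD5hi replicate 4 and 0.442 to 1.09 CPM in the others. The globin values of 0 therefore do not show that erythroid RNA was absent. A pair of libraries stood apart: 18 B cell markers summed to 622 CPM in CD5lo replicate 3 and 1007 CPM in CD5hi replicate 4, against 35.1 to 74.3 CPM in the other 6. The same pair held the most Cd4 RNA, at 27.2 and 62.2 CPM against 0.415 to 2.51 CPM. A comparison of named genes with the GENCODE vM21 annotation (GRCm38) found 5 that share at least 10% of their exonic bases with another tested gene: Cd247, Adgre5, Ssbp2, St3gal6 and Txnip. Main values below use all 8 libraries, and the comparison without this pair is called the 6-library comparison.

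A total of 806 genes rose and 476 fell in CD5hi cells among 13554 genes tested (edgeR quasi-likelihood test, Benjamini-Hochberg adjusted p under 0.05), so 9.46% of the genes tested were called, 5.95% higher and 3.51% lower. Most of these changes were modest. Of the genes that rose, 325 changed by less than 1.5-fold, 188 by 1.5- to 2-fold and 293 by more than 2-fold, and of those that fell, 306, 85 and 85 did so. The median log2 difference was 0.73 among genes that rose, -0.45 among those that fell and -0.0028 among all genes tested. The share of genes called was 5.04% among genes below 1 CPM, 15.2% between 1 and 10 CPM, 8.58% between 10 and 100 CPM and 10.3% above 100 CPM. Genes that fell outnumbered those that rose, 130 to 105, only in the most abundant class. The 4 CD5hi and 4 CD5lo values did not overlap for 14.8% of the genes tested. In the 6-library comparison 873 genes rose (6.44%) and 612 fell (4.52%), together 11% of those tested. These included 699 of the 806 and 400 of the 476, and none of the 1282 genes called with all 8 libraries changed direction. Leaving out one library at a time left 472 of the 806 and 206 of the 476 called in all 8 fits. Counts of called genes fell most without CD5hi replicate 2, to 518 and 252, and rose most without CD5hi replicate 4, to 948 and 699. Without CD5lo replicate 4 they were 542 and 256. For gene lists, brackets give the counts that moved by more than 1.5 times when a library was left out, each library named being left out alone. A gene is named as having risen or fallen below only if it stayed called in all of these fits and in the 6-library comparison, except where its lost calls are given.

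**Figure D1:**
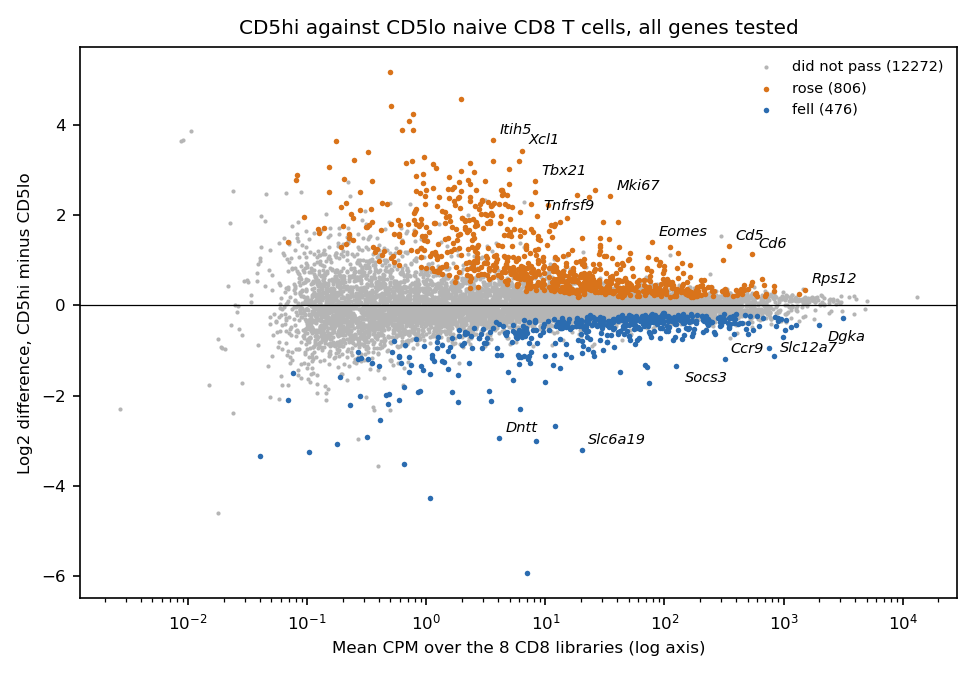
Log2 difference, CD5hi minus CD5lo, against the mean CPM over the 8 CD8 libraries (log axis) for each of 13554 genes tested; orange points rose, blue points fell and grey points did not pass an edgeR adjusted p of 0.05. The median of the 806 genes that rose is 0.73 and that of the 476 that fell is -0.45, and 293 rose and 85 fell by more than 2-fold.

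The sorted marker itself was higher in RNA as in protein. Cd5 measured 196, 203, 216 and 187 CPM in CD5lo cells and 469, 552, 477 and 493 CPM in CD5hi cells. Each Cd5 value in CD5hi cells was above the highest CD5lo value (log2 difference 1.31 ± 0.07, edgeR adjusted p = 2.61e-08). Cd5 lies at chr19:10717116-10739002 (GRCm38, minus strand) and its neighbour Cd6 at chr19:10789341-10830058. Cd6 encodes a related scavenger-receptor-family protein that also restrains T cell receptor signals, and measured 328, 349, 365 and 324 CPM in the CD5lo libraries and 757, 807, 719 and 709.7 CPM in the CD5hi libraries. For Cd6 the groups did not overlap, and CD5hi was higher (log2 difference 1.13 ± 0.07, edgeR adjusted p = 1.09e-07). The coreceptor gene Cd8b1, whose protein helps the receptor engage MHC class I, measured 1462, 1334, 1200.3 and 1319.6 CPM in CD5lo cells and 1046, 951, 947 and 905 CPM in CD5hi cells. Cd8b1 lay below the CD5lo range in all 4 CD5hi libraries (log2 difference -0.47 ± 0.07, edgeR adjusted p = 0.000874). Its partner Cd8a, encoding the alpha chain, measured 2140.0, 1973, 1778 and 2025 CPM in the CD5lo libraries and 1563, 1645, 1634 and 1575 CPM in the CD5hi libraries. All CD5hi values of Cd8a lay below the CD5lo values, with a log2 difference of -0.30 ± 0.36 that passed only when the 8 CD8 libraries were fitted alone (edgeR adjusted p = 0.683 with the CD4 libraries and 0.0339 without). Among the gate genes, Cd44, whose protein marks antigen-experienced cells, measured 6.103, 7.07, 7.35 and 2.703 CPM in CD5lo cells and 19.7, 20.5, 7.61 and 10.7 CPM in CD5hi cells. The Cd44 values did not overlap, though CD5hi replicate 3 lay close to CD5lo replicate 3 (log2 difference 1.33 ± 0.36, edgeR adjusted p = 0.0268). This Cd44 call was lost with the 8 CD8 libraries alone (edgeR adjusted p = 0.0775), and without CD5lo replicate 1, CD5lo replicate 4, CD5hi replicate 1 or CD5hi replicate 2 (edgeR adjusted p = 0.0589, 0.0769, 0.0798 and 0.1).

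Components of the receptor pathway that transmit the signal were, where they changed, lower in CD5hi cells. Of 30 genes for the receptor complex and its proximal kinases and adaptors, 5 fell; 5 fell in the 6-library comparison, and 4 of the 5 that fell stayed called whichever one of the 8 libraries was left out. Grap2 encodes GADS, the adaptor that joins LAT to SLP-76. It measured 1142, 1249, 1205 and 1293 CPM in the CD5lo libraries and 683, 844, 911 and 930.2 CPM in the CD5hi libraries. Grap2 was lower in each CD5hi library than in any CD5lo library (log2 difference -0.54 ± 0.09, edgeR adjusted p = 0.00136). Fyb, encoding the adaptor ADAP that links the receptor to integrins, measured 617, 679, 659 and 657 CPM in CD5lo cells and 511, 552, 577 and 567 CPM in CD5hi cells. Each Fyb value in CD5hi cells was below the lowest CD5lo value (log2 difference -0.24 ± 0.06, edgeR adjusted p = 0.0103). Cd247, the zeta chain that carries most of the receptor's signalling motifs, measured 401, 364, 367 and 396 CPM in the CD5lo libraries and 344, 292, 296 and 323 CPM in the CD5hi libraries. For Cd247 the groups did not overlap, and CD5hi was lower (log2 difference -0.28 ± 0.07, edgeR adjusted p = 0.0114). The median log2 difference of the 30 genes was -0.082. Fitted without the CD4 libraries, Fyb and Cd247 had edgeR adjusted p values of 0.0553 and 0.055, and without the pair and CD4 CD5lo replicate 3, Fyb had 0.057. Cd247 shares 56.4% of its exonic bases with Pou2f1, and their reads may not be told apart because no source used here gives the strand setting of the counting.

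Genes that restrain the receptor moved both ways. Of 30 tested, 5 rose and 3 fell, and 4 of the 5 that rose and 2 of the 3 that fell stayed called whichever one of the 8 libraries was left out; in the 6-library comparison 3 rose and 3 fell. Beside Cd6, the phosphatase gene Ubash3b, whose product Sts-1 removes activating phosphates from ZAP-70, measured 21.9, 16.2, 24.95 and 20.005 CPM in CD5lo cells and 46.5, 36.9, 52.7 and 40.6 CPM in CD5hi cells. Ubash3b lay above the CD5lo range in all 4 CD5hi libraries (log2 difference 1.09 ± 0.13, edgeR adjusted p = 9.91e-05). Sla, encoding the adaptor SLAP that promotes turnover of the receptor complex, measured 159, 169, 160.3 and 156 CPM in the CD5lo libraries and 239.8, 216, 207 and 188 CPM in the CD5hi libraries. Sla was higher in each CD5hi library than in any CD5lo library (log2 difference 0.40 ± 0.07, edgeR adjusted p = 0.0018). Ptpn6, which encodes the phosphatase SHP-1, measured 494, 411, 396 and 467 CPM in CD5lo cells and 716, 661, 521 and 648 CPM in CD5hi cells. Each Ptpn6 value in CD5hi cells was above the highest CD5lo value (log2 difference 0.53 ± 0.12, edgeR adjusted p = 0.0115). Its adjusted p in the 6-library comparison was 0.0518. In the opposite direction went Dgka, the diacylglycerol kinase that ends RAS activation, at 2342, 2333, 2142 and 2292 CPM in the CD5lo libraries and 1611, 1675, 1695 and 1792 CPM in the CD5hi libraries. For Dgka the groups did not overlap, and CD5hi was lower (log2 difference -0.43 ± 0.06, edgeR adjusted p = 0.000196). Sit1, a transmembrane adaptor that binds inhibitory phosphatases, measured 103, 89.9, 83.9 and 95.04 CPM in CD5lo cells and 71.9, 55.1, 49.6 and 62.04 CPM in CD5hi cells. Sit1 lay below the CD5lo range in all 4 CD5hi libraries (log2 difference -0.64 ± 0.12, edgeR adjusted p = 0.00269).

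Some inhibitory receptors of activated or exhausted T cells were higher, at low levels. Of 13 tested, 4 rose and 1 fell (0 without CD5lo replicates 1, 2 or 4 or CD5hi replicates 2 or 3), in the 6-library comparison also 4 and 1, and all 4 that rose stayed called whichever one of the 8 libraries was left out. Pdcd1, encoding PD-1, measured 1.08, 1.38, 1.197 and 1.17 CPM in the CD5lo libraries and 5.06, 5.18, 2.86 and 3.43 CPM in the CD5hi libraries. Pdcd1 was higher in each CD5hi library than in any CD5lo library (log2 difference 1.77 ± 0.22, edgeR adjusted p = 0.000141). Lag3, a receptor for MHC class II, measured 0.132, 0.176, 0.724 and 0.140 CPM in CD5lo cells and 1.7002, 2.35, 1.08 and 1.65 CPM in CD5hi cells. Each Lag3 value in CD5hi cells was above the highest CD5lo value (log2 difference 2.55 ± 0.50, edgeR adjusted p = 0.00399). Cd160, which binds the TNF receptor family member HVEM, measured 28.2, 22.97, 21.9 and 21.7 CPM in the CD5lo libraries and 69.2, 51.4, 42.5 and 32.3 CPM in the CD5hi libraries. For Cd160 the groups did not overlap, and CD5hi was higher (log2 difference 1.04 ± 0.21, edgeR adjusted p = 0.0047). Cd200, the ligand of an inhibitory receptor on myeloid and lymphoid cells, measured 4.17, 3.22, 5.21 and 2.83 CPM in CD5lo cells and 13.3, 12.9, 9.82 and 11.5 CPM in CD5hi cells. Cd200 lay above the CD5lo range in all 4 CD5hi libraries (log2 difference 1.63 ± 0.18, edgeR adjusted p = 4.09e-05). Lag3 in CD5lo replicate 3, one of the 2 libraries with B cell marker RNA, was the highest CD5lo value, and the log2 difference was 3.505 in the 6-library comparison.

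Of 28 genes that receptor signals induce early, 2 rose (1 without CD5hi replicate 2) and 1 fell. These are 7.14% and 3.57% of the list, near the 5.95% and 3.51% of all genes tested. Tnfrsf9, which encodes the costimulatory receptor 4-1BB and is induced by receptor signals, measured 3.42, 3.34, 4.08 and 2.95 CPM in the CD5lo libraries and 12.9, 15.9, 12.6 and 12.9 CPM in the CD5hi libraries. Tnfrsf9 was higher in each CD5hi library than in any CD5lo library (log2 difference 1.98 ± 0.14, edgeR adjusted p = 5.27e-07). Jun, a subunit of the transcription factor AP-1, measured 1219, 1421, 1077 and 1180.0 CPM in CD5lo cells and 631, 784, 627 and 965 CPM in CD5hi cells. Each Jun value in CD5hi cells was below the lowest CD5lo value (log2 difference -0.70 ± 0.15, edgeR adjusted p = 0.00572). Among 31 NF-kB subunits, inhibitors and adaptors 2 rose (1 without CD5lo replicate 4) and 3 fell (1 without CD5hi replicates 2 or 3), with 2 and 5 in the 6-library comparison. Tnip2, an adaptor that limits NF-kB signalling, measured 11.6, 12.3, 14.2 and 14.1 CPM in the CD5lo libraries and 17.1, 20.3, 19.5 and 19.96 CPM in the CD5hi libraries. For Tnip2 the groups did not overlap, and CD5hi was higher (log2 difference 0.56 ± 0.09, edgeR adjusted p = 0.000655). Traf5, an adaptor of TNF receptors, measured 65.2, 66.9, 62.1 and 64.97 CPM in CD5lo cells and 50.4, 53.8, 49.8 and 58.3 CPM in CD5hi cells. Traf5 lay below the CD5lo range in all 4 CD5hi libraries (log2 difference -0.29 ± 0.06, edgeR adjusted p = 0.00697). Of 26 genes of calcium and NFAT signalling, 1 rose (0 without CD5lo replicates 2, 3 or 4 or CD5hi replicates 2 or 4 and 0 in the 6-library comparison) and 2 fell (4 without CD5hi replicate 4), the latter in every fit. Orai2, a subunit of the store-operated calcium channel, measured 481, 526, 486 and 542 CPM in the CD5lo libraries and 341, 396, 397 and 431 CPM in the CD5hi libraries. Orai2 was lower in each CD5hi library than in any CD5lo library (log2 difference -0.38 ± 0.08, edgeR adjusted p = 0.00454). Rcan3, a calcineurin regulator, measured 41.8, 43.03, 39.3 and 50.3 CPM in CD5lo cells and 25.3, 31.7, 27.6 and 37.2 CPM in CD5hi cells. Each Rcan3 value in CD5hi cells was below the lowest CD5lo value (log2 difference -0.52 ± 0.11, edgeR adjusted p = 0.00748). Of the NF-kB list 6.45% rose and 9.68% fell, and of the calcium and NFAT list 3.85% and 7.69%.

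In the costimulatory and cytokine signalling lists most genes did not pass. Of the costimulatory list 11.5% rose and 3.85% fell, against 5.95% and 3.51% of all genes. In the 6-library comparison 6.44% and 4.52% of all genes did so. The shares were 4% and 8% for cytokine receptors and 4.76% and 9.52% for JAK, STAT and SOCS genes. Of 26 costimulatory receptors and ligands, 3 rose (5 without CD5lo replicate 3) and 1 fell (2 without CD5hi replicate 4), and in the 6-library comparison 6 rose and 2 fell. Besides Tnfrsf9, Tnfsf14, encoding the ligand LIGHT, measured 2.09, 2.27, 2.02 and 2.67 CPM in the CD5lo libraries and 7.06, 8.32, 5.49 and 5.86 CPM in the CD5hi libraries. For Tnfsf14 the groups did not overlap, and CD5hi was higher (log2 difference 1.56 ± 0.22, edgeR adjusted p = 0.000385). Tnfrsf25, the receptor DR3, measured 31.8, 25.7, 29.5 and 24.6 CPM in CD5lo cells and 40.8, 39.6, 40.2 and 41.5 CPM in CD5hi cells. Tnfrsf25 lay above the CD5lo range in all 4 CD5hi libraries (log2 difference 0.54 ± 0.10, edgeR adjusted p = 0.00238). Tnfrsf1a, the widely expressed TNF receptor, measured 55.3, 56.9, 57.1 and 59.7 CPM in the CD5lo libraries and 34.2, 43.9, 44.5 and 47.8 CPM in the CD5hi libraries. Tnfrsf1a was lower in each CD5hi library than in any CD5lo library (log2 difference -0.43 ± 0.09, edgeR adjusted p = 0.00516). Socs3, the inhibitor of cytokine receptors that signal through gp130, was among the most changed abundant genes at 197, 173, 169.6 and 181 CPM in CD5lo cells and 52.9, 57.8, 83.95 and 90.96 CPM in CD5hi cells. Each Socs3 value in CD5hi cells was below the lowest CD5lo value (log2 difference -1.33 ± 0.15, edgeR adjusted p = 4.51e-05). Pim2, a survival kinase induced by cytokines, measured 132, 119, 124 and 134 CPM in the CD5lo libraries and 181, 181, 175 and 197 CPM in the CD5hi libraries. For Pim2 the groups did not overlap, and CD5hi was higher (log2 difference 0.53 ± 0.09, edgeR adjusted p = 0.00154). Il10ra, the ligand-binding chain of the interleukin-10 receptor, measured 18.8, 16.8, 21.7 and 13.9 CPM in CD5lo cells and 26.96, 23.5, 24.3 and 26.4 CPM in CD5hi cells. Il10ra lay above the CD5lo range in all 4 CD5hi libraries (log2 difference 0.51 ± 0.12, edgeR adjusted p = 0.0113). Its edgeR adjusted p was 0.0554 with the 8 CD8 libraries alone.

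Transcription factors of effector and memory fate rose more often than they fell in these CD44lo cells. Of 24 tested, 7 rose and 1 fell (2 without CD5hi replicate 3), with the same counts of 7 and 1 in the 6-library comparison, and 6 of the 7 that rose and the 1 that fell stayed called whichever one of the 8 libraries was left out. Eomes, the T-box factor of memory-like CD8 cells, measured 57.3, 42.3, 39.6 and 33.7 CPM in the CD5lo libraries and 159, 115, 100.1 and 84.7 CPM in the CD5hi libraries. Eomes was higher in each CD5hi library than in any CD5lo library (log2 difference 1.41 ± 0.21, edgeR adjusted p = 0.000601). Tbx21, encoding T-bet, the T-box factor of effector cells, measured 2.23, 1.79, 3.397 and 1.08 CPM in CD5lo cells and 15.7, 17.8, 14.998 and 8.805 CPM in CD5hi cells. Each Tbx21 value in CD5hi cells was above the highest CD5lo value (log2 difference 2.76 ± 0.44, edgeR adjusted p = 0.000972). Hopx, a homeodomain protein found in effector and memory cells, measured 23.4, 19.6, 19.05 and 16.5 CPM in the CD5lo libraries and 61.9, 36.1, 35.6 and 34.4 CPM in the CD5hi libraries. For Hopx the groups did not overlap, and CD5hi was higher (log2 difference 1.098 ± 0.19, edgeR adjusted p = 0.0018). Ikzf2, the Ikaros-family factor Helios, measured 15.2, 17.3, 19.2 and 8.68 CPM in CD5lo cells and 46.1, 48.5, 49.8 and 26.2 CPM in CD5hi cells. Ikzf2 lay above the CD5lo range in all 4 CD5hi libraries (log2 difference 1.499 ± 0.31, edgeR adjusted p = 0.00534). Its relative Ikzf3, Aiolos, measured 145, 161, 189 and 157 CPM in the CD5lo libraries and 227, 241, 266 and 228 CPM in the CD5hi libraries. Ikzf3 was higher in each CD5hi library than in any CD5lo library (log2 difference 0.56 ± 0.12, edgeR adjusted p = 0.00524). Tox, a factor induced by persistent receptor signals, measured 42.02, 51.2, 53.95 and 51.3 CPM in CD5lo cells and 63.9, 64.4, 61.2 and 63.9 CPM in CD5hi cells. Each Tox value in CD5hi cells was above the highest CD5lo value (log2 difference 0.35 ± 0.08, edgeR adjusted p = 0.00943). Prdm1, which encodes the effector differentiation factor Blimp-1, went the other way at 1.89, 2.88, 3.29 and 2.86 CPM in the CD5lo libraries and 0.763, 0.705, 0.669 and 1.65 CPM in the CD5hi libraries. For Prdm1 the groups did not overlap, and CD5hi was lower (log2 difference -1.53 ± 0.26, edgeR adjusted p = 0.00142).

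Of 26 cytotoxic and cytokine genes, 4 rose (2 without CD5lo replicate 4 or CD5hi replicate 1) and 1 fell (2 without CD5hi replicate 4), 15.4% and 3.85% of the list against 5.95% and 3.51% of all genes. In the 6-library comparison 5 rose and 2 fell. Xcl1, the chemokine lymphotactin that attracts cross-presenting dendritic cells, measured 1.03, 0.914, 1.77 and 0.657 CPM in CD5lo cells and 17.7, 13.5, 8.26 and 7.496 CPM in CD5hi cells. Xcl1 lay above the CD5lo range in all 4 CD5hi libraries (log2 difference 3.43 ± 0.47, edgeR adjusted p = 0.000294). Ctsw, a cathepsin of cytotoxic cells, measured 635, 483, 495 and 480.0 CPM in the CD5lo libraries and 984, 748, 721 and 686 CPM in the CD5hi libraries. Ctsw was higher in each CD5hi library than in any CD5lo library (log2 difference 0.58 ± 0.13, edgeR adjusted p = 0.0092). Tnf measured 40.4, 36.4, 35.6 and 33.1 CPM in CD5lo cells and 21.7, 19.7, 18.7 and 26.1 CPM in CD5hi cells. Each Tnf value in CD5hi cells was below the lowest CD5lo value (log2 difference -0.76 ± 0.16, edgeR adjusted p = 0.00733). Of 12 natural killer type receptors, 3 rose, and all 3 that rose stayed called whichever one of the 8 libraries was left out. Slamf7, a SLAM-family receptor, measured 2.602, 3.54, 4.66 and 1.604 CPM in the CD5lo libraries and 11.2, 10.9, 8.41 and 5.79 CPM in the CD5hi libraries. For Slamf7 the groups did not overlap, and CD5hi was higher (log2 difference 1.55 ± 0.32, edgeR adjusted p = 0.00603). Klrb1c, the NK1.1 antigen in this strain, measured 1.796, 0.679, 1.55 and 0.538 CPM in CD5lo cells and 5.57, 3.87, 3.84 and 3.19 CPM in CD5hi cells. Klrb1c lay above the CD5lo range in all 4 CD5hi libraries (log2 difference 1.86 ± 0.40, edgeR adjusted p = 0.00766). Klra3, of the Ly49 family whose near-identical members could share reads, measured 0.0264, 0.0703, 0.0835 and 0 CPM in the CD5lo libraries and 2.102, 1.07, 0.519 and 0.178 CPM in the CD5hi libraries. Klra3 was higher in each CD5hi library than in any CD5lo library (log2 difference 4.41 ± 0.90, edgeR adjusted p = 0.00513).

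Among markers of natural killer cells, 2 of 6 tested rose, Eomes and Klrb1c. The list summed to 36.02 to 63.3 CPM in CD5lo and 97.0 to 168 CPM in CD5hi libraries. Eomes alone gave 33.7 to 57.3 CPM and 84.7 to 159 CPM of these sums. The other 10 markers without Eomes summed to 6.01, 4.43, 8.91 and 2.36 CPM in CD5lo and 9.09, 5.94, 7.51 and 12.2 CPM in CD5hi libraries, so the groups overlapped. Ncr1, the activating receptor that defines natural killer cells, was at 0 to 0.529 CPM in CD5lo and 0 to 0.966 CPM in CD5hi libraries, highest in the pair with B cell marker RNA. Their part in the differences of Eomes and Klrb1c was not tested. The Ly49 family genes differed from each other: the markers Klra4 and Klra8 were at most at 0.0139 CPM, Klra3 rose as given above, and Klra1 rose from 0 to 0.167 CPM in CD5lo to 3.00, 1.68, 0.508 and 0.648 CPM in CD5hi libraries (log2 difference 4.24 ± 0.90, edgeR adjusted p = 0.00666, and 0.00385 in the 6-library comparison).

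Naive-state factors and genes of recent thymic output were counted next. Of the naive-state list 4.55% rose and 9.09% fell, and of the thymic list 7.14% and 28.6%. Of all genes, 5.95% rose and 3.51% fell. Of 22 naive-state factors, 1 rose (0 without CD5lo replicates 2, 3 or 4 or CD5hi replicates 1 or 2) and 2 fell. Bcl11b, which holds T cell identity, measured 344, 442, 421 and 423 CPM in CD5lo cells and 243, 287, 303 and 314 CPM in CD5hi cells. Each Bcl11b value in CD5hi cells was below the lowest CD5lo value (log2 difference -0.51 ± 0.11, edgeR adjusted p = 0.00786). Runx1, a regulator of T cell development and quiescence, measured 45.2, 58.9, 53.6 and 55.7 CPM in the CD5lo libraries and 35.5, 39.5, 38.3 and 45.3 CPM in the CD5hi libraries, with overlapping ranges (log2 difference -0.43 ± 0.10, edgeR adjusted p = 0.012). Of 14 genes that are high in thymocytes or recent thymic emigrants, 4 fell, with 4 in the 6-library comparison, and Ikzf2 rose. Dntt, encoding the terminal transferase that adds untemplated bases during receptor gene assembly, measured 9.102, 7.91, 4.18 and 7.61 CPM in CD5lo cells and 0.910, 0.955, 0.508 and 1.37 CPM in CD5hi cells. For Dntt the groups did not overlap, and CD5hi was lower (log2 difference -2.94 ± 0.31, edgeR adjusted p = 3.58e-05). Ccr9, the chemokine receptor of thymocytes and gut-homing cells, measured 521, 417, 417 and 426 CPM in the CD5lo libraries and 217, 162, 202 and 199 CPM in the CD5hi libraries. Ccr9 lay below the CD5lo range in all 4 CD5hi libraries (log2 difference -1.19 ± 0.18, edgeR adjusted p = 0.000691). Arpp21, a thymocyte-enriched RNA-binding protein, measured 1.57, 1.57, 1.28 and 0.947 CPM in CD5lo cells and 0.134, 0.443, 0.485 and 0.356 CPM in CD5hi cells. Arpp21 was lower in each CD5hi library than in any CD5lo library (log2 difference -1.91 ± 0.34, edgeR adjusted p = 0.00225).

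Cell division genes gave the highest shares of called genes among the functional lists. Of 38 tested genes of DNA replication, 27 rose, and 22 of these stayed called whichever one library was left out; of 39 mitotic genes, 33 rose, of which 27 stayed called, and 1 fell (0 without CD5lo replicates 1 or 4 or CD5hi replicates 2, 3 or 4 and 0 in the 6-library comparison). These shares, 71.1% and 84.6%, stand beside the 5.95% of all genes tested that rose. In the 6-library comparison 33 and 35 rose. The median log2 differences were 0.78 and 1.98. Against the CD5lo mean, the median replication gene stood at 1.03, 1.01, 0.69 and 0.17 log2 units in the 4 CD5hi libraries, and the median mitotic gene at 1.96, 1.93, 1.41 and 0.35. CD5hi replicate 4, one of the pair with B cell marker RNA, was thus nearest to the CD5lo libraries, whose medians ranged from -0.06 to 0.08 and from -0.37 to 0.25. The part of that RNA in this difference was not tested.

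Replication and mitotic genes are controlled through different promoter elements, E2F sites for the first and the cell cycle homology region, usually with CCAAT boxes, for the second. Promoter sequences of 4 members that rose are shown for this reason, each as the 250 bases before the RefSeq start on GRCm38.p6, read along the gene. Capitals mark the E2F words TTTCCCGC and TTTGGCGC in Mcm5 and Mcm6 and the homology-region word TTTGAA in Top2a and Mki67, searched on both strands. Only members whose 250 bases hold a word of their list were eligible, so each sequence shown was certain to have a match. Cdc6 and Kif15 met the same rule but are not shown, and their 250 bases hold 0 CCAAT. Mcm5 lies at chr8:75109259-75109508 (plus strand), Mcm6 at chr1:128359706-128359955 (minus), Top2a at chr11:99024190-99024439 (minus) and Mki67 at chr7:135716380-135716629 (minus).
Mcm5: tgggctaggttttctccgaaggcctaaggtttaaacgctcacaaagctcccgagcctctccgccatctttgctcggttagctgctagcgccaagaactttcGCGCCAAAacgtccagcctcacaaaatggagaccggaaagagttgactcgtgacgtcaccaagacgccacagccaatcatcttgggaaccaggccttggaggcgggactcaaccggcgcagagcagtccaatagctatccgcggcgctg
Mcm6: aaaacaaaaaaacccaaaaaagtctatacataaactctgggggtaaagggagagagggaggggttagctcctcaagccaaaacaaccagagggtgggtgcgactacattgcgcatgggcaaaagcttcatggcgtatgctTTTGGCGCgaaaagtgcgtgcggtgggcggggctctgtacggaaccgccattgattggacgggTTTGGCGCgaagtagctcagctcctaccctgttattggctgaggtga
Top2a: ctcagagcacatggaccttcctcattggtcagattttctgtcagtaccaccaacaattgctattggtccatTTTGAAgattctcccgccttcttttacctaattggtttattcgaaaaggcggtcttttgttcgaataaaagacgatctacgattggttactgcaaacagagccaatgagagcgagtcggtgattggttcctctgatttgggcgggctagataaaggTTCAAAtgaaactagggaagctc
Mki67: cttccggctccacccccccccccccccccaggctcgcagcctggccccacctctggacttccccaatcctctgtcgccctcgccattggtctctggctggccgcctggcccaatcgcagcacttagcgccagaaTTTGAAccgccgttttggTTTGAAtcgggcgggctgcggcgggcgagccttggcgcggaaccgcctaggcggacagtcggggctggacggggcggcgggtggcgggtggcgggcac
Over windows of 300 bases, an E2F word stood in 29.7% of 37 promoters of the replication list, 9.38% of 32 promoters of the mitotic list and 1.57% of all 32851 promoters. TTTGAA stood in 10.8%, 75% and 17.9%, and CCAAT, searched on both strands, in 59.5%, 84.4% and 37.4%. TTTGAA does not overlap the other words. By symbol, 32 of the 38 replication genes and 31 of the 39 mitotic genes had a promoter in the table, some of them more than 1. A match describes the letters and is no evidence of binding.

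The 4 genes shown had these levels. Mcm5, a subunit of the replicative helicase, measured 58.5, 53.97, 56.9 and 56.6 CPM in the CD5lo libraries and 134, 133, 112 and 80.3 CPM in the CD5hi libraries. Each Mcm5 value in CD5hi cells was above the highest CD5lo value (log2 difference 1.02 ± 0.12, edgeR adjusted p = 7.43e-05). Mcm6, of the same complex, measured 91.4, 94.2, 91.5 and 89.03 CPM in CD5lo cells and 192, 194, 152 and 111 CPM in CD5hi cells. For Mcm6 the groups did not overlap, and CD5hi was higher (log2 difference 0.82 ± 0.13, edgeR adjusted p = 0.000786). Top2a, the topoisomerase that untangles replicated chromosomes, measured 15.8, 20.2, 25.1 and 10.4 CPM in the CD5lo libraries and 74.997, 87.7, 67.8 and 25.97 CPM in the CD5hi libraries. Top2a lay above the CD5lo range in all 4 CD5hi libraries (log2 difference 1.84 ± 0.32, edgeR adjusted p = 0.0018). Mki67, which encodes the proliferation antigen Ki-67, measured 9.84, 14.5, 15.3 and 4.22 CPM in CD5lo cells and 63.3, 90.9, 60.97 and 19.6 CPM in CD5hi cells. Mki67 was higher in each CD5hi library than in any CD5lo library (log2 difference 2.42 ± 0.44, edgeR adjusted p = 0.00257). CD5hi replicate 4 was the lowest CD5hi library for all 4. Other members spanned the process: Cdc6, which loads the helicase, measured 1.59, 2.47, 2.38 and 1.21 CPM in the CD5lo libraries and 10.9, 11.6, 8.64 and 3.303 CPM in the CD5hi libraries. Each Cdc6 value in CD5hi cells was above the highest CD5lo value (log2 difference 2.17 ± 0.36, edgeR adjusted p = 0.00132). Stmn1, a microtubule-destabilising protein, measured 5.205, 6.17, 7.35 and 4.04 CPM in CD5lo cells and 37.03, 42.02, 31.4 and 13.6 CPM in CD5hi cells. For Stmn1 the groups did not overlap, and CD5hi was higher (log2 difference 2.45 ± 0.27, edgeR adjusted p = 5.16e-05). Bub1b, a spindle checkpoint kinase, measured 2.35, 2.61, 2.67 and 1.84 CPM in the CD5lo libraries and 12.6, 12.5, 8.76 and 5.58 CPM in the CD5hi libraries. Bub1b lay above the CD5lo range in all 4 CD5hi libraries (log2 difference 2.06 ± 0.26, edgeR adjusted p = 0.000142).

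**Figure D2:**
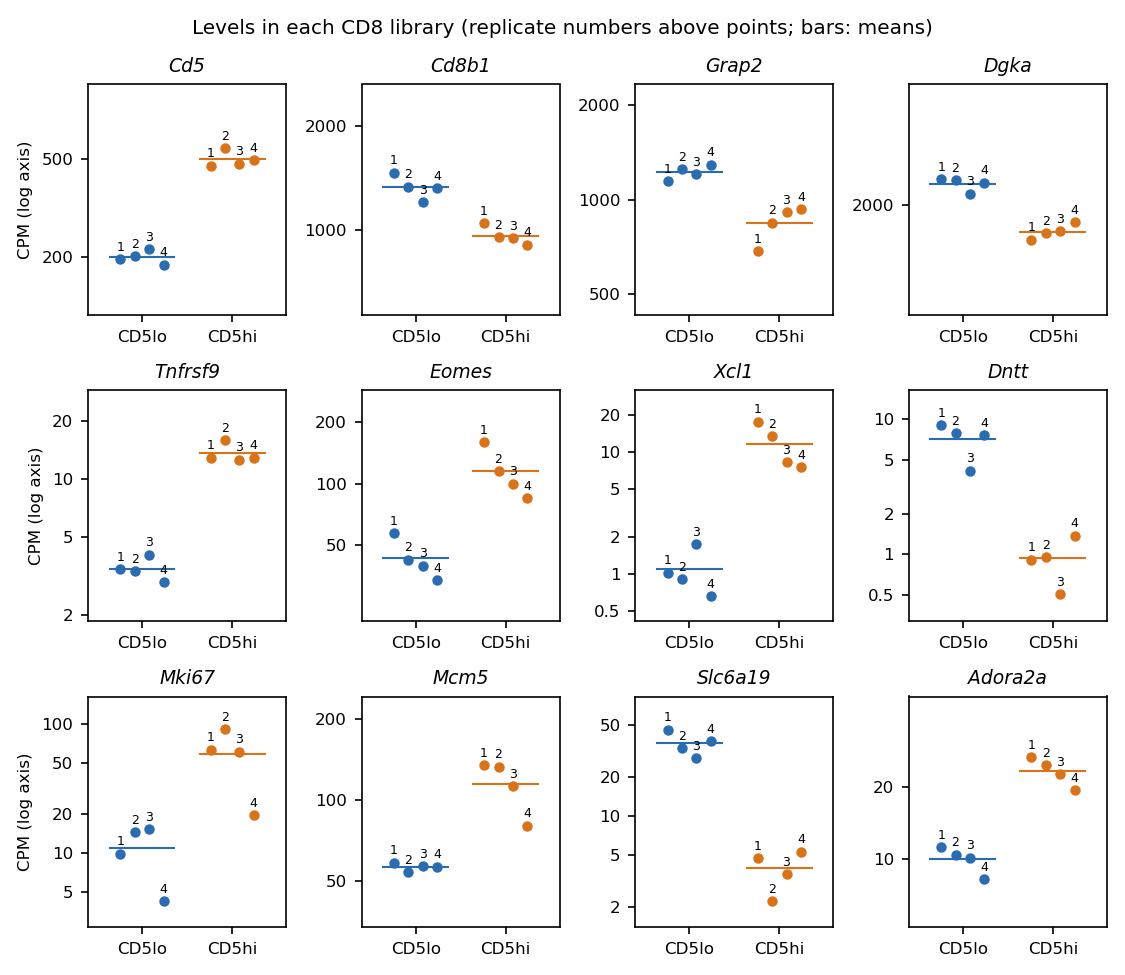
CPM on a log axis in each of the 4 CD5lo (blue) and 4 CD5hi (orange) CD8 libraries for 12 genes, with horizontal bars at the group means and numbers giving the replicate. The groups do not overlap for any of the 12 genes shown, and CD5hi replicate 4 is the lowest CD5hi library for Mki67 and Mcm5.

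Cell cycle regulators and repair factors were counted apart. Of 28 G1 cyclins, inhibitors and antiproliferative genes, 5 rose and 1 fell, with 5 and 1 in the 6-library comparison, and the shares of the list were 17.9% and 3.57% against 5.95% and 3.51% of all genes. E2f1, the transcriptional activator of the S phase programme, measured 4.66, 4.81, 5.57 and 3.43 CPM in CD5lo cells and 13.4, 17.2, 13.7 and 7.23 CPM in CD5hi cells. E2f1 was higher in each CD5hi library than in any CD5lo library (log2 difference 1.48 ± 0.23, edgeR adjusted p = 0.000647). The repressor E2f7 measured 0.251, 0.187, 0.487 and 0.0431 CPM in the CD5lo libraries and 1.45, 1.58, 2.01 and 0.508 CPM in the CD5hi libraries. Each E2f7 value in CD5hi cells was above the highest CD5lo value (log2 difference 2.53 ± 0.56, edgeR adjusted p = 0.00858). Its edgeR adjusted p was 0.0501 with the 8 CD8 libraries alone. Btg2, an antiproliferative gene of resting lymphocytes, measured 345, 344, 342 and 345 CPM in CD5lo cells and 242, 219.5, 268 and 287 CPM in CD5hi cells. For Btg2 the groups did not overlap, and CD5hi was lower (log2 difference -0.44 ± 0.10, edgeR adjusted p = 0.0094). Of 29 repair and checkpoint genes, 11 rose and 2 fell (1 without CD5lo replicates 1, 2, 3 or 4 or CD5hi replicates 1, 2 or 3), and 9 of the 11 that rose and 1 of the 2 that fell stayed called whichever one of the 8 libraries was left out. The shares were 37.9% and 6.897%. Chek1, the checkpoint kinase of S phase, measured 1.03, 1.04, 1.95 and 0.915 CPM in the CD5lo libraries and 11.6, 8.704, 6.46 and 2.401 CPM in the CD5hi libraries. Chek1 lay above the CD5lo range in all 4 CD5hi libraries (log2 difference 2.56 ± 0.39, edgeR adjusted p = 0.000669). Msh6, of mismatch repair, measured 74.7, 78.9, 73.02 and 74.3 CPM in CD5lo cells and 54.7, 61.4, 57.8 and 52.1 CPM in CD5hi cells. Msh6 was lower in each CD5hi library than in any CD5lo library (log2 difference -0.41 ± 0.08, edgeR adjusted p = 0.00277).

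Lists for protein synthesis differed in the share of genes that passed. Of 75 ribosomal protein genes, 69 had a higher estimate in CD5hi cells, with a median of 0.13 on the log2 scale, and 2 rose (5 without CD5hi replicate 3), 2.67% of the list against 5.95% of all genes. The median ribosomal protein gene stood 0.33 above the CD5lo mean in CD5hi replicate 1 and between 0.03 and 0.09 in the other 3. With a term for the replicate number in the model, 23 of the 75 rose, and 1813 of all 13554 genes. Rps12 measured 1413, 1263, 1271 and 1382 CPM in the CD5lo libraries and 1962, 1676, 1543 and 1623 CPM in the CD5hi libraries. Each Rps12 value in CD5hi cells was above the highest CD5lo value (log2 difference 0.35 ± 0.08, edgeR adjusted p = 0.00911). Rps26, another protein of the small subunit, measured 731, 724, 786 and 735 CPM in CD5lo cells and 1046, 906, 901 and 874 CPM in CD5hi cells. For Rps26 the groups did not overlap, and CD5hi was higher (log2 difference 0.32 ± 0.08, edgeR adjusted p = 0.0144). Ribosomal protein genes have many processed pseudogenes that could share their reads. In ribosome biogenesis 6 of 30 genes rose (2 without CD5hi replicate 2 and 3 without CD5lo replicates 2 or 4), with 7 in the 6-library comparison. The 6 that rose are 20% of the list. Dkc1, the pseudouridine synthase dyskerin, measured 78.3, 81.6, 73.5 and 78.2 CPM in the CD5lo libraries and 99.8, 109, 104 and 91.9 CPM in the CD5hi libraries. Dkc1 lay above the CD5lo range in all 4 CD5hi libraries (log2 difference 0.38 ± 0.09, edgeR adjusted p = 0.0117). Among 33 translation factors and tRNA synthetases 4 rose (2 without CD5lo replicate 1 or CD5hi replicate 2 and 7 without CD5hi replicate 4) and 1 fell (0 without CD5lo replicates 1, 2 or 4 or CD5hi replicates 1, 2 or 3). Eif5a, a factor for elongation through difficult sequences, measured 466, 451, 459 and 438 CPM in CD5lo cells and 702, 632, 579 and 554 CPM in CD5hi cells. Eif5a was higher in each CD5hi library than in any CD5lo library (log2 difference 0.44 ± 0.07, edgeR adjusted p = 0.00121). Kars, the lysyl-tRNA synthetase, measured 129.6, 133, 144 and 137 CPM in the CD5lo libraries and 162, 170.2, 165 and 156 CPM in the CD5hi libraries. Each Kars value in CD5hi cells was above the highest CD5lo value (log2 difference 0.27 ± 0.05, edgeR adjusted p = 0.00513).

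**Figure D3:**
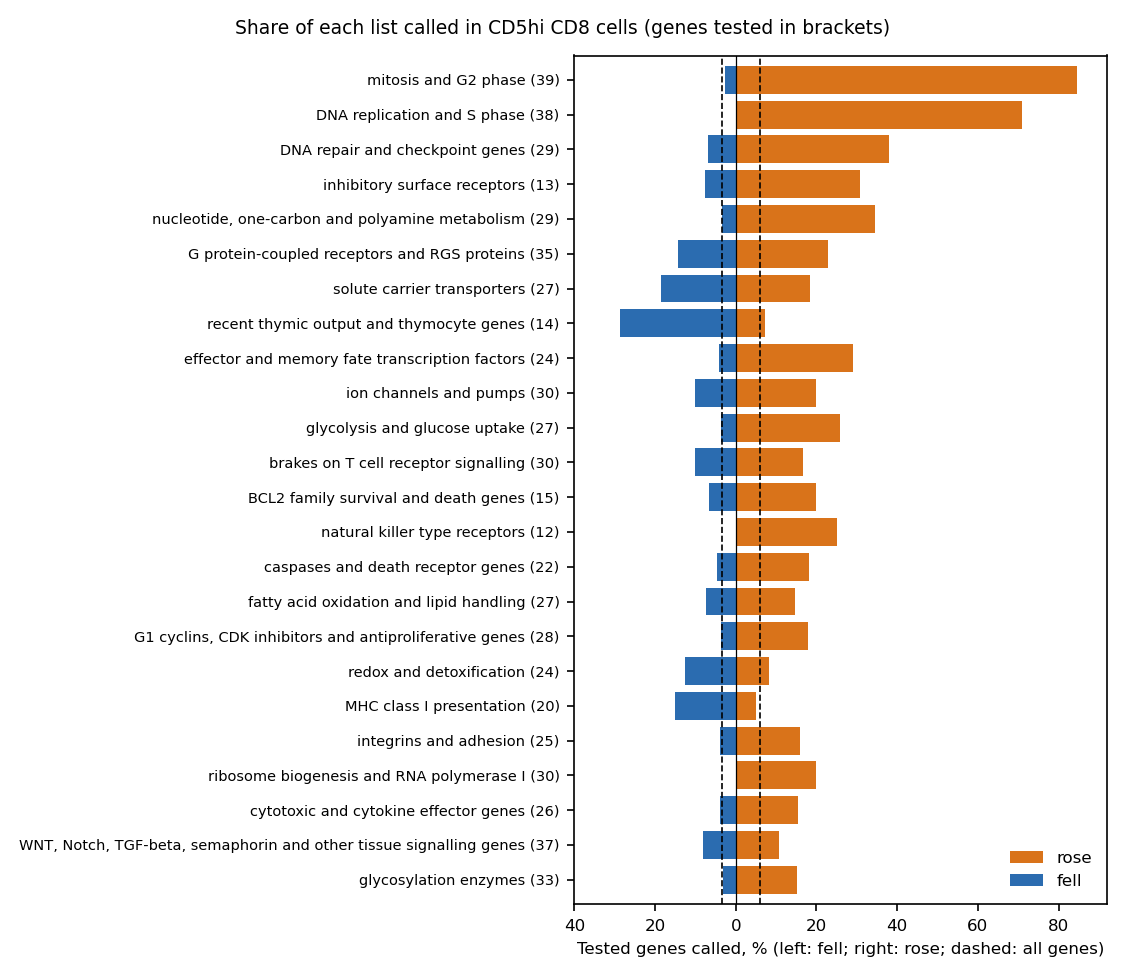
Percentage of tested genes that rose (orange, right) or fell (blue, left) in CD5hi CD8 cells in the functional lists of at least 10 genes with the largest called shares, at an edgeR adjusted p under 0.05, with dashed lines at the 5.95% and 3.51% of all 13554 genes. Bars for mitosis, at 84.6%, and DNA replication, at 71.1%, are the longest.

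Metabolic genes changed enzyme by enzyme. Of 27 genes of glycolysis and glucose uptake, 7 rose and 1 fell, in the 6-library comparison likewise 7 and 1, and 5 of the 7 that rose and the 1 that fell stayed called whichever one of the 8 libraries was left out. Tpi1, triosephosphate isomerase, measured 41.5, 42.7, 42.9 and 43.6 CPM in CD5lo cells and 72.9, 70.6, 63.9 and 59.4 CPM in CD5hi cells. For Tpi1 the groups did not overlap, and CD5hi was higher (log2 difference 0.64 ± 0.07, edgeR adjusted p = 5.59e-05). Pgk1, phosphoglycerate kinase, measured 97.000, 96.2, 93.8 and 93.9 CPM in the CD5lo libraries and 153, 136, 122 and 109.8 CPM in the CD5hi libraries. Pgk1 lay above the CD5lo range in all 4 CD5hi libraries (log2 difference 0.45 ± 0.08, edgeR adjusted p = 0.00178). Gapdh measured 399, 388, 403 and 379 CPM in CD5lo cells and 529, 521, 489.6 and 450.0 CPM in CD5hi cells. Gapdh was higher in each CD5hi library than in any CD5lo library (log2 difference 0.34 ± 0.07, edgeR adjusted p = 0.00527). Pdk1, the kinase that turns off pyruvate dehydrogenase and so keeps pyruvate out of mitochondria, measured 334, 338, 290.4 and 333 CPM in the CD5lo libraries and 214, 198, 202 and 219.7 CPM in the CD5hi libraries. Each Pdk1 value in CD5hi cells was below the lowest CD5lo value (log2 difference -0.64 ± 0.07, edgeR adjusted p = 4.02e-05). Of 38 citric acid cycle and respiratory chain genes, 2 rose (0 without CD5lo replicate 4 or CD5hi replicate 2, 1 without CD5lo replicates 2 or 3, 4 without CD5hi replicate 4 and 1 in the 6-library comparison) and 1 fell, and Idh2, the mitochondrial isocitrate dehydrogenase, fell in all fits. It measured 87.7, 83.9, 81.4 and 80.04 CPM in CD5lo cells and 66.9, 60.7, 58.6 and 65.4 CPM in CD5hi cells. For Idh2 the groups did not overlap, and CD5hi was lower (log2 difference -0.40 ± 0.07, edgeR adjusted p = 0.00208). The shares of the citric acid cycle and respiratory chain list were 5.26% higher and 2.63% lower. With a term for the replicate number in the model, 13 of its 38 genes rose and 1 fell.

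Nucleotide and one-carbon metabolism, which supplies DNA synthesis, gave 10 genes that rose of 29 (5 without CD5lo replicate 4 and 6 without CD5hi replicate 2), 1 that fell, and 11 in the 6-library comparison. Shmt1, which moves a carbon from serine to folate, measured 15.6, 15.5, 15.6 and 17.6 CPM in the CD5lo libraries and 25.999, 28.6, 25.4 and 23.96 CPM in the CD5hi libraries. Shmt1 lay above the CD5lo range in all 4 CD5hi libraries (log2 difference 0.69 ± 0.09, edgeR adjusted p = 0.000133). Psat1, of serine synthesis, measured 31.3, 31.6, 29.9 and 29.6 CPM in CD5lo cells and 62.04, 59.4, 50.1 and 42.2 CPM in CD5hi cells. Psat1 was higher in each CD5hi library than in any CD5lo library (log2 difference 0.80 ± 0.12, edgeR adjusted p = 0.000601). Ada, adenosine deaminase, measured 13.4, 13.7, 15.2 and 13.9 CPM in the CD5lo libraries and 22.9, 21.4, 20.04 and 18.1 CPM in the CD5hi libraries. Each Ada value in CD5hi cells was above the highest CD5lo value (log2 difference 0.55 ± 0.10, edgeR adjusted p = 0.00304). Impdh1, an enzyme of guanine nucleotide synthesis, measured 253, 262, 248 and 269 CPM in CD5lo cells and 169.9, 208, 201 and 211 CPM in CD5hi cells. For Impdh1 the groups did not overlap, and CD5hi was lower (log2 difference -0.39 ± 0.08, edgeR adjusted p = 0.00629). In lipid handling, 4 of 27 genes rose and 2 fell (1 without CD5lo replicates 1, 3 or 4 or CD5hi replicate 2 and 1 in the 6-library comparison). Acot7, an acyl-CoA thioesterase, measured 7.04, 5.49, 6.18 and 4.45 CPM in the CD5lo libraries and 25.8, 26.3, 16.9 and 14.9 CPM in the CD5hi libraries. Acot7 lay above the CD5lo range in all 4 CD5hi libraries (log2 difference 1.86 ± 0.21, edgeR adjusted p = 7.26e-05). Fabp5, a fatty acid binding protein, measured 5.22, 5.21, 7.71 and 4.93 CPM in CD5lo cells and 13.99, 10.9, 13.2 and 8.55 CPM in CD5hi cells. Fabp5 was higher in each CD5hi library than in any CD5lo library (log2 difference 1.02 ± 0.19, edgeR adjusted p = 0.00319). Sgms1, a sphingomyelin synthase, measured 37.4, 38.5, 44.9 and 38.03 CPM in the CD5lo libraries and 30.1, 24.5, 27.3 and 31.5 CPM in the CD5hi libraries. Each Sgms1 value in CD5hi cells was below the lowest CD5lo value (log2 difference -0.49 ± 0.09, edgeR adjusted p = 0.00231).

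Transporters and ion channels included large decreases. Of 27 solute carriers tested, 5 rose (2 without CD5hi replicate 2 and 3 without CD5lo replicates 1, 2, 3 or 4) and 5 fell, with 4 and 7 in the 6-library comparison, and 4 of the 5 that fell stayed called in every fit. Slc6a19, a transporter of neutral amino acids, measured 46.5, 33.4, 27.9 and 37.98 CPM in CD5lo cells and 4.73, 2.22, 3.58 and 5.32 CPM in CD5hi cells. For Slc6a19 the groups did not overlap, and CD5hi was lower (log2 difference -3.203 ± 0.33, edgeR adjusted p = 2.66e-05). Slc16a5, of the monocarboxylate transporter family, measured 129.5, 112, 90.7 and 119.9 CPM in the CD5lo libraries and 39.4, 28.5, 28.9 and 40.5 CPM in the CD5hi libraries. Slc16a5 lay below the CD5lo range in all 4 CD5hi libraries (log2 difference -1.72 ± 0.15, edgeR adjusted p = 5.08e-06). Slc12a7, a potassium-chloride cotransporter, measured 1071, 943, 894 and 1081 CPM in CD5lo cells and 410.4, 495, 549 and 622 CPM in CD5hi cells. Slc12a7 was lower in each CD5hi library than in any CD5lo library (log2 difference -0.94 ± 0.11, edgeR adjusted p = 6.84e-05). Slc29a1, a nucleoside transporter, measured 42.8, 43.3, 45.2 and 49.3 CPM in the CD5lo libraries and 60.4, 60.6, 56.02 and 55.9 CPM in the CD5hi libraries. Each Slc29a1 value in CD5hi cells was above the highest CD5lo value (log2 difference 0.37 ± 0.07, edgeR adjusted p = 0.00298). Of 30 channels and pumps, 6 rose and 3 fell (6 without CD5hi replicate 4 and 5 in the 6-library comparison). Potassium channel genes went in both directions. Kcna2 measured 101, 105, 83.1 and 120.2 CPM in CD5lo cells and 32.1, 39.9, 40.7 and 47.1 CPM in CD5hi cells. For Kcna2 the groups did not overlap, and CD5hi was lower (log2 difference -1.36 ± 0.16, edgeR adjusted p = 9.75e-05). Kcnq5 measured 1.24, 1.26, 2.005 and 0.915 CPM in the CD5lo libraries and 5.78, 6.95, 5.19 and 4.64 CPM in the CD5hi libraries. Kcnq5 lay above the CD5lo range in all 4 CD5hi libraries (log2 difference 2.06 ± 0.25, edgeR adjusted p = 9.75e-05). Kcnf1, which encodes a subunit that forms no channel alone, measured 0.264, 0.187, 0.111 and 0.0646 CPM in CD5lo cells and 5.62, 3.66, 0.761 and 4.904 CPM in CD5hi cells. Kcnf1 was higher in each CD5hi library than in any CD5lo library (log2 difference 4.58 ± 0.66, edgeR adjusted p = 0.000399). Trpm1, a cation channel known from retina and melanocytes, measured 9.96, 11.4, 9.96 and 10.8 CPM in the CD5lo libraries and 31.9, 34.9, 27.2 and 25.3 CPM in the CD5hi libraries. Each Trpm1 value in CD5hi cells was above the highest CD5lo value (log2 difference 1.502 ± 0.20, edgeR adjusted p = 0.000196).

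G protein-coupled receptors and their regulators gave 8 genes that rose and 5 that fell of 35, with 8 and 5 in the 6-library comparison; 6 of the 8 that rose and 4 of the 5 that fell stayed called whichever one of the 8 libraries was left out. Among them were 2 receptors that raise cyclic AMP. Adora2a, the adenosine receptor that dampens T cell responses, measured 11.2, 10.4, 10.1 and 8.204 CPM in CD5lo cells and 26.8, 24.7, 22.7 and 19.4 CPM in CD5hi cells. For Adora2a the groups did not overlap, and CD5hi was higher (log2 difference 1.23 ± 0.12, edgeR adjusted p = 1.5e-05). Ptger2, a receptor for prostaglandin E2, measured 1.37, 1.41, 1.46 and 1.07 CPM in the CD5lo libraries and 3.75, 3.56, 4.22 and 3.33 CPM in the CD5hi libraries. Ptger2 lay above the CD5lo range in all 4 CD5hi libraries (log2 difference 1.49 ± 0.18, edgeR adjusted p = 8.41e-05). Gnas, the stimulatory G protein subunit they share, measured 531, 612, 632 and 559.6 CPM in CD5lo cells and 761, 866, 806 and 760.2 CPM in CD5hi cells. Gnas was higher in each CD5hi library than in any CD5lo library (log2 difference 0.45 ± 0.08, edgeR adjusted p = 0.00228). Rgs3, which speeds the turning off of G protein signals, measured 99.4, 104, 87.7 and 93.8 CPM in the CD5lo libraries and 191, 214, 162 and 171 CPM in the CD5hi libraries. Each Rgs3 value in CD5hi cells was above the highest CD5lo value (log2 difference 0.94 ± 0.08, edgeR adjusted p = 7.26e-06). Rgs10 measured 111, 106, 118 and 95.3 CPM in CD5lo cells and 200.3, 178, 178 and 152 CPM in CD5hi cells. For Rgs10 the groups did not overlap, and CD5hi was higher (log2 difference 0.72 ± 0.10, edgeR adjusted p = 0.000212). Grm6, a glutamate receptor known from retina, measured 16.9, 11.7, 9.61 and 21.2 CPM in the CD5lo libraries and 1.098, 1.25, 1.28 and 3.74 CPM in the CD5hi libraries. Grm6 lay below the CD5lo range in all 4 CD5hi libraries (log2 difference -3.01 ± 0.42, edgeR adjusted p = 0.000312). Adgre5, the adhesion receptor CD97, measured 435, 464, 464 and 519 CPM in CD5lo cells and 321, 339, 348 and 411 CPM in CD5hi cells. Adgre5 was lower in each CD5hi library than in any CD5lo library (log2 difference -0.41 ± 0.08, edgeR adjusted p = 0.00293).

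Homing, adhesion and surface sugar genes added changes of several kinds. The homing list had shares near those of all genes: 7.69% rose and 3.85% fell, against 5.95% and 3.51%. For glycosylation the shares were 15.2% and 3.03%, and for integrins and adhesion 16% and 4%. Of 26 chemokine receptor and homing genes, 2 rose (4 without CD5lo replicate 3 and 4 in the 6-library comparison) and 1 fell (2 without CD5hi replicate 4 and 2 in the 6-library comparison), the last being Ccr9. Fut7, the fucosyltransferase that completes selectin ligands, measured 1.4002, 0.984, 1.49 and 1.06 CPM in the CD5lo libraries and 2.88, 2.94, 2.96 and 1.94 CPM in the CD5hi libraries. Each Fut7 value in CD5hi cells was above the highest CD5lo value (log2 difference 1.12 ± 0.21, edgeR adjusted p = 0.00271). St3gal6, a sialyltransferase that acts on the same ligands, measured 17.4, 14.3, 15.8 and 11.97 CPM in CD5lo cells and 34.6, 25.7, 29.1 and 19.4 CPM in CD5hi cells. For St3gal6 the groups did not overlap, and CD5hi was higher (log2 difference 0.87 ± 0.17, edgeR adjusted p = 0.00402). Of 33 glycosylation enzymes, 5 rose and 1 fell (2 without CD5hi replicate 4), and 4 of the 5 that rose and the 1 that fell stayed called whichever one of the 8 libraries was left out. B3gnt5, which starts lacto-series glycolipids, measured 12.8, 13.2, 13.8 and 9.25 CPM in the CD5lo libraries and 27.2, 19.5, 19.9 and 20.5 CPM in the CD5hi libraries. B3gnt5 lay above the CD5lo range in all 4 CD5hi libraries (log2 difference 0.83 ± 0.17, edgeR adjusted p = 0.00462). St8sia1, the GD3 ganglioside synthase, measured 73.8, 86.9, 70.5 and 73.5 CPM in CD5lo cells and 39.8, 48.4, 51.2 and 46.8 CPM in CD5hi cells. St8sia1 was lower in each CD5hi library than in any CD5lo library (log2 difference -0.71 ± 0.09, edgeR adjusted p = 0.000212). Of 25 integrin and adhesion genes, 4 rose (1 without CD5lo replicate 4 or CD5hi replicates 1 or 2 and 2 without CD5lo replicates 1 or 2) and 1 fell (0 without CD5lo replicate 4 or CD5hi replicate 1, 2 without CD5lo replicate 1 or CD5hi replicate 3, 3 without CD5hi replicate 4 and 3 in the 6-library comparison). Itgb1, the beta-1 chain, was the one riser that held in every fit, at 48.03, 49.1, 53.6 and 46.6 CPM in the CD5lo libraries and 82.7, 72.1, 73.5 and 63.2 CPM in the CD5hi libraries. Each Itgb1 value in CD5hi cells was above the highest CD5lo value (log2 difference 0.56 ± 0.08, edgeR adjusted p = 0.00044).

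Cytoskeletal and membrane-scaffold genes included large increases. Of 47 tested, 4 rose and 2 fell, and 3 of the 4 that rose and both that fell stayed called whichever one of the 8 libraries was left out. Chn2, encoding the Rac-inactivating protein beta-chimaerin, measured 1.93, 2.59, 2.67 and 2.49 CPM in CD5lo cells and 13.4, 16.4, 14.5 and 10.98 CPM in CD5hi cells. For Chn2 the groups did not overlap, and CD5hi was higher (log2 difference 2.51 ± 0.24, edgeR adjusted p = 1.36e-05). Coro2a, a coronin that binds actin, measured 5.31, 6.96, 10.6 and 6.76 CPM in the CD5lo libraries and 26.7, 50.4, 38.2 and 40.1 CPM in the CD5hi libraries. Coro2a lay above the CD5lo range in all 4 CD5hi libraries (log2 difference 2.39 ± 0.41, edgeR adjusted p = 0.00149). Vim, the intermediate filament vimentin, measured 387, 405, 369 and 396 CPM in CD5lo cells and 564, 598, 483 and 493 CPM in CD5hi cells. Vim was higher in each CD5hi library than in any CD5lo library (log2 difference 0.46 ± 0.07, edgeR adjusted p = 0.000831). Rhoh, a haematopoietic GTPase required for T cell receptor signalling, measured 330.3, 331, 294 and 307 CPM in the CD5lo libraries and 238, 206, 192 and 204 CPM in the CD5hi libraries. Each Rhoh value in CD5hi cells was below the lowest CD5lo value (log2 difference -0.59 ± 0.07, edgeR adjusted p = 0.000105). Anxa2, a calcium-dependent membrane-binding protein, measured 6.37, 6.21, 7.95 and 4.67 CPM in CD5lo cells and 26.9, 31.7, 20.4 and 17.7 CPM in CD5hi cells. For Anxa2 the groups did not overlap, and CD5hi was higher (log2 difference 1.94 ± 0.19, edgeR adjusted p = 2.14e-05). Its giant scaffold partner Ahnak measured 171, 213, 249.5 and 188 CPM in the CD5lo libraries and 369, 455, 454 and 364 CPM in the CD5hi libraries. Ahnak lay above the CD5lo range in all 4 CD5hi libraries (log2 difference 1.00 ± 0.20, edgeR adjusted p = 0.00525). Thy1, a glycolipid-anchored surface protein of all mouse T cells, measured 1516, 1427, 1355 and 1587 CPM in CD5lo cells and 1135, 1035, 1032 and 1144 CPM in CD5hi cells. Thy1 was lower in each CD5hi library than in any CD5lo library (log2 difference -0.44 ± 0.09, edgeR adjusted p = 0.00682). Ms4a4c, a tetraspan surface protein, measured 40.5, 26.6, 33.8 and 25.1 CPM in the CD5lo libraries and 94.8, 59.9, 73.2 and 53.97 CPM in the CD5hi libraries. Each Ms4a4c value in CD5hi cells was above the highest CD5lo value (log2 difference 1.16 ± 0.20, edgeR adjusted p = 0.00161).

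Death and survival genes moved in opposite directions within one family. Of 15 BCL2 family genes, 3 rose and 1 fell, with 4 and 1 in the 6-library comparison. Bcl2l11, encoding the pro-death protein BIM, measured 47.2, 50.2, 57.2 and 50.6 CPM in CD5lo cells and 74.4, 92.6, 110.2 and 88.5 CPM in CD5hi cells. For Bcl2l11 the groups did not overlap, and CD5hi was higher (log2 difference 0.83 ± 0.13, edgeR adjusted p = 0.000999). Bmf, another pro-death member, measured 21.1, 21.1, 20.7 and 13.3 CPM in the CD5lo libraries and 5.85, 7.204, 5.999 and 10.1 CPM in the CD5hi libraries. Bmf lay below the CD5lo range in all 4 CD5hi libraries (log2 difference -1.39 ± 0.24, edgeR adjusted p = 0.00175). Bcl2a1b, of the pro-survival A1 genes whose near-identical copies could share reads, measured 7.19, 4.74, 5.82 and 6.21 CPM in CD5lo cells and 17.04, 10.95, 8.68 and 9.07 CPM in CD5hi cells. Bcl2a1b was higher in each CD5hi library than in any CD5lo library (log2 difference 0.93 ± 0.21, edgeR adjusted p = 0.00849). Ripk3, the kinase of necroptosis, measured 63.1, 59.6, 59.9 and 60.2 CPM in the CD5lo libraries and 88.2, 82.6, 74.1 and 75.96 CPM in the CD5hi libraries. Each Ripk3 value in CD5hi cells was above the highest CD5lo value (log2 difference 0.40 ± 0.07, edgeR adjusted p = 0.00215).

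Interferon, chromatin, redox and lysosome genes were also counted, and the shares that rose and fell stand against 5.95% and 3.51% of all genes. Of 43 interferon-stimulated genes, 2.33% and 6.98% passed: 1 rose and 3 fell (1 without CD5lo replicates 1 or 4 or CD5hi replicate 2 and 5 without CD5hi replicate 3). Igtp, an interferon-induced GTPase, measured 219, 199.6, 199 and 219 CPM in CD5lo cells and 163, 148, 171 and 161 CPM in CD5hi cells. For Igtp the groups did not overlap, and CD5hi was lower (log2 difference -0.38 ± 0.06, edgeR adjusted p = 0.000852). Samhd1, which degrades deoxynucleotides, measured 347, 335, 382 and 353 CPM in the CD5lo libraries and 398, 429, 508 and 463 CPM in the CD5hi libraries. Samhd1 lay above the CD5lo range in all 4 CD5hi libraries (log2 difference 0.34 ± 0.07, edgeR adjusted p = 0.00594). Of 41 chromatin and DNA methylation enzymes, 3 rose (1 without CD5lo replicates 1 or 4 or CD5hi replicate 2) and 1 fell (0 without CD5lo replicates 1, 2 or 3 or CD5hi replicate 1 and 0 in the 6-library comparison). The shares were 7.32% and 2.44%. Dnmt3a, the enzyme that sets new DNA methylation, measured 108, 126, 128 and 114 CPM in CD5lo cells and 139.5, 183, 169.6 and 148 CPM in CD5hi cells. Dnmt3a was higher in each CD5hi library than in any CD5lo library (log2 difference 0.43 ± 0.09, edgeR adjusted p = 0.0068). In redox and detoxification, 2 rose and 3 fell of 24, and both that rose and all 3 that fell stayed called whichever one of the 8 libraries was left out. The shares were 8.33% and 12.5%. Txnip, the thioredoxin inhibitor that limits glucose uptake, measured 724, 618, 508 and 593 CPM in the CD5lo libraries and 462, 374, 332 and 404 CPM in the CD5hi libraries. Each Txnip value in CD5hi cells was below the lowest CD5lo value (log2 difference -0.64 ± 0.12, edgeR adjusted p = 0.00326). Txnrd1, thioredoxin reductase, measured 78.3, 87.8, 81.9 and 84.3 CPM in CD5lo cells and 93.02, 112, 108 and 101 CPM in CD5hi cells. For Txnrd1 the groups did not overlap, and CD5hi was higher (log2 difference 0.32 ± 0.07, edgeR adjusted p = 0.00717). Cyp2s1, a cytochrome P450, measured 15.1, 14.9, 11.03 and 19.6 CPM in the CD5lo libraries and 3.37, 4.02, 3.88 and 7.37 CPM in the CD5hi libraries. Cyp2s1 lay below the CD5lo range in all 4 CD5hi libraries (log2 difference -1.704 ± 0.21, edgeR adjusted p = 0.000136). Of 35 lysosome and vesicle genes, 1 rose (0 without CD5lo replicates 2, 3 or 4 or CD5hi replicates 1 or 2, 2 without CD5hi replicate 3 and 0 in the 6-library comparison) and 2 fell, 2.86% and 5.71% of the list, among them Npc2, the cholesterol carrier of lysosomes. It measured 561, 541, 558 and 602 CPM in CD5lo cells and 461, 398, 418 and 455 CPM in CD5hi cells. Npc2 was lower in each CD5hi library than in any CD5lo library (log2 difference -0.38 ± 0.07, edgeR adjusted p = 0.00169).

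Lists beyond these were also counted. Most held few called genes, but the shares differed between these lists. Against 5.95% of all genes, the share that rose was highest for caspases and death receptors, at 18.2%. It was 0% for the PI3K and the RNA binding lists. Against 3.51% of all genes, the share that fell was highest for MHC class I presentation, at 15%. It was lowest for fatty acid and sterol synthesis, at 3.03%. Many of these counts moved when a library was left out, as the brackets give. Of 27 genes for PI3K, AKT, mTOR and AMPK signalling, 0 rose and 2 fell (1 without CD5lo replicates 1, 2, 3 or 4 or CD5hi replicate 2). Of 25 genes for cytokine receptors, 1 rose (2 without CD5hi replicate 1) and 2 fell (0 without CD5lo replicate 4 or CD5hi replicates 2 or 3 and 1 without CD5lo replicate 2 or CD5hi replicate 1). Of 21 genes of the JAK, STAT and SOCS families, 1 rose and 2 fell (1 without CD5hi replicate 2 and 4 without CD5hi replicate 4). Of 26 genes of the Ly6, Gimap and other small lymphocyte families, 1 rose (2 without CD5lo replicate 3, 3 without CD5hi replicate 4 and 3 in the 6-library comparison) and 3 fell. Of 33 genes of fatty acid and sterol synthesis, 2 rose (0 without CD5lo replicate 2, 1 without CD5lo replicates 1, 3 or 4 or CD5hi replicates 2, 3 or 4 and 1 in the 6-library comparison) and 1 fell (0 without CD5lo replicates 1, 2 or 4 or CD5hi replicates 1, 2 or 3, 2 without CD5lo replicate 3, 3 without CD5hi replicate 4 and 3 in the 6-library comparison). Of 20 genes of MHC class I presentation, 1 rose (0 without CD5lo replicates 1, 2, 3 or 4 or CD5hi replicates 1, 2 or 3 and 2 without CD5hi replicate 4) and 3 fell (0 without CD5lo replicates 1 or 4 or CD5hi replicate 2, 1 without CD5lo replicate 2 or CD5hi replicate 1, 6 without CD5hi replicate 4 and 5 in the 6-library comparison). Of 28 genes of heat shock and unfolded protein handling, 2 rose (1 without CD5lo replicates 2 or 4) and 2 fell (0 without CD5lo replicates 2 or 4 or CD5hi replicates 1, 2 or 3 and 1 without CD5lo replicates 1 or 3). Of 29 genes of RNA binding, splicing and decay, 0 rose and 1 fell (0 without CD5lo replicates 1, 2, 3 or 4 or CD5hi replicates 1, 2 or 3, 2 without CD5hi replicate 4 and 0 in the 6-library comparison). Of 28 genes for ubiquitin ligases and deubiquitinases, 2 rose (1 without CD5lo replicates 1, 2, 3 or 4 or CD5hi replicates 1 or 2 and 1 in the 6-library comparison) and 2 fell (1 without CD5lo replicates 1, 2, 3 or 4 or CD5hi replicates 1, 2 or 4 and 1 in the 6-library comparison). Of 23 genes for annexins and S100 proteins, 2 rose (5 without CD5lo replicate 3 and 5 in the 6-library comparison) and 2 fell (1 without CD5lo replicates 1, 2 or 4 or CD5hi replicates 2 or 3). Of 22 genes for caspases and death receptors, 4 rose (1 without CD5lo replicate 2 and 2 without CD5lo replicate 1 or CD5hi replicate 2) and 1 fell (0 without CD5lo replicates 1, 2 or 4 or CD5hi replicates 1, 2 or 3). Of 37 genes of WNT, Notch, TGF-beta and other tissue signalling, 4 rose (2 without CD5lo replicate 4) and 3 fell (1 without CD5lo replicate 4). Fzd6, a WNT receptor, measured 0.0528, 0.0469, 0.195 and 0.108 CPM in the CD5lo libraries and 0.321, 0.375, 0.461 and 0.381 CPM in the CD5hi libraries. Each Fzd6 value in CD5hi cells was above the highest CD5lo value (log2 difference 1.93 ± 0.44, edgeR adjusted p = 0.0109). Axin2, a feedback inhibitor and target of WNT signalling, measured 63.96, 72.1, 70.6 and 74.8 CPM in CD5lo cells and 38.3, 50.5, 55.3 and 54.5 CPM in CD5hi cells. For Axin2 the groups did not overlap, and CD5hi was lower (log2 difference -0.50 ± 0.10, edgeR adjusted p = 0.00443). Itih5, a hyaluronan-binding secreted protein, measured 0.317, 0.375, 1.34 and 0.151 CPM in the CD5lo libraries and 6.13, 9.49, 6.73 and 4.61 CPM in the CD5hi libraries. Itih5 lay above the CD5lo range in all 4 CD5hi libraries (log2 difference 3.66 ± 0.44, edgeR adjusted p = 8.59e-05).

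**Figure D4:**
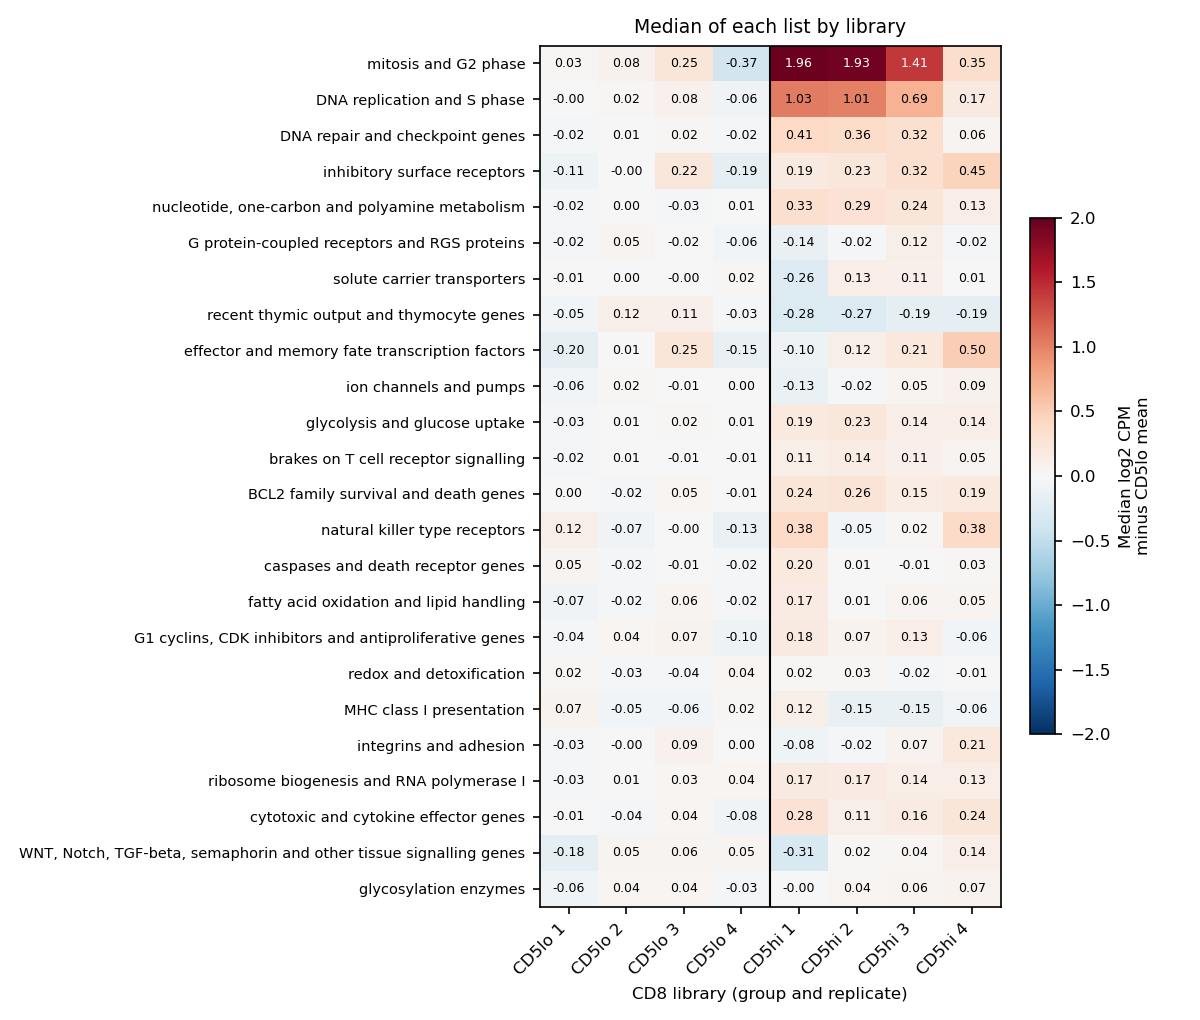
Median log2 CPM of the tested genes in each list of the plot of called shares, relative to the mean of the 4 CD5lo libraries, for each of the 8 CD8 libraries. The CD5hi columns are high for mitosis and DNA replication, least so in CD5hi replicate 4 at 0.35 and 0.17, and low for the thymic list in all 4 at -0.19 to -0.28.

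Most of the called genes, 598 that rose and 390 that fell, belonged to none of these lists. Among those with moderate changes, under 2-fold at 10 CPM or more, the smallest adjusted p values included the following. Zfp318, a nuclear zinc finger protein that controls IgD splicing in B cells, measured 62.8, 76.4, 77.3 and 66.3 CPM in CD5lo cells and 126, 146, 119.5 and 126 CPM in CD5hi cells. Zfp318 was higher in each CD5hi library than in any CD5lo library (log2 difference 0.87 ± 0.09, edgeR adjusted p = 2.02e-05). Sh3bp2, an adaptor that binds SYK-family kinases, measured 16.5, 20.5, 22.5 and 18.9 CPM in the CD5lo libraries and 32.9, 44.2, 32.5 and 39.2 CPM in the CD5hi libraries. Each Sh3bp2 value in CD5hi cells was above the highest CD5lo value (log2 difference 0.92 ± 0.11, edgeR adjusted p = 8.46e-05). Tacc2, a centrosomal protein, measured 14.3, 15.8, 15.3 and 12.8 CPM in CD5lo cells and 25.7, 31.2, 26.7 and 26.4 CPM in CD5hi cells. For Tacc2 the groups did not overlap, and CD5hi was higher (log2 difference 0.92 ± 0.09, edgeR adjusted p = 1.64e-05). Dctd, which makes the nucleotide used for thymidine synthesis, measured 7.95, 7.11, 7.78 and 7.77 CPM in the CD5lo libraries and 14.4, 12.5, 13.9 and 13.7 CPM in the CD5hi libraries. Dctd lay above the CD5lo range in all 4 CD5hi libraries (log2 difference 0.83 ± 0.09, edgeR adjusted p = 5.59e-05). Smyd2, a lysine methyltransferase, measured 16.7, 17.6, 17.3 and 18.96 CPM in CD5lo cells and 27.2, 29.9, 24.2 and 27.95 CPM in CD5hi cells. Smyd2 was higher in each CD5hi library than in any CD5lo library (log2 difference 0.63 ± 0.08, edgeR adjusted p = 0.000161). Ephx1, microsomal epoxide hydrolase, measured 99.7, 98.5, 101 and 112 CPM in the CD5lo libraries and 161, 157, 142 and 164 CPM in the CD5hi libraries. Each Ephx1 value in CD5hi cells was above the highest CD5lo value (log2 difference 0.60 ± 0.08, edgeR adjusted p = 0.000161). Ptma, named for its abundance, the abundant nuclear protein prothymosin alpha, measured 619.8, 653, 658 and 650.1 CPM in CD5lo cells and 734, 824, 802 and 734 CPM in CD5hi cells. For Ptma the groups did not overlap, and CD5hi was higher (log2 difference 0.26 ± 0.06, edgeR adjusted p = 0.00671).

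Moderate decreases outside the lists included developmental factors. Ssbp2, a subunit of LIM-domain transcription complexes, measured 43.4, 43.7, 38.5 and 40.1 CPM in the CD5lo libraries and 24.3, 21.6, 24.8 and 24.5 CPM in the CD5hi libraries. Ssbp2 lay below the CD5lo range in all 4 CD5hi libraries (log2 difference -0.80 ± 0.07, edgeR adjusted p = 7.26e-06). Eya2, a transcriptional coactivator with phosphatase activity, measured 49.5, 51.7, 44.3 and 50.8 CPM in CD5lo cells and 24.1, 26.9, 25.4 and 28.1 CPM in CD5hi cells. Eya2 was lower in each CD5hi library than in any CD5lo library (log2 difference -0.91 ± 0.09, edgeR adjusted p = 1.56e-05). Ntrk3, a neurotrophin receptor, measured 28.7, 30.2, 29.8 and 29.2 CPM in the CD5lo libraries and 15.5, 16.99, 19.4 and 19.05 CPM in the CD5hi libraries. Each Ntrk3 value in CD5hi cells was below the lowest CD5lo value (log2 difference -0.73 ± 0.09, edgeR adjusted p = 0.000101). Arl5c, a small GTPase of the ARF family, measured 191, 185, 169 and 161 CPM in CD5lo cells and 119, 98.9, 107 and 99.01 CPM in CD5hi cells. For Arl5c the groups did not overlap, and CD5hi was lower (log2 difference -0.73 ± 0.07, edgeR adjusted p = 2.02e-05). Sepp1, the selenium carrier selenoprotein P, measured 129.6, 134, 119 and 134 CPM in the CD5lo libraries and 92.5, 79.5, 83.3 and 92.1 CPM in the CD5hi libraries. Sepp1 lay below the CD5lo range in all 4 CD5hi libraries (log2 difference -0.57 ± 0.08, edgeR adjusted p = 0.000212). Mettl8, an RNA methyltransferase, measured 41.6, 40.7, 35.9 and 44.2 CPM in CD5lo cells and 26.7, 23.2, 24.6 and 28.8 CPM in CD5hi cells. Mettl8 was lower in each CD5hi library than in any CD5lo library (log2 difference -0.65 ± 0.09, edgeR adjusted p = 0.000265). Larger decreases outside the lists were those of Adamts14, a procollagen protease, at 17.98, 25.2, 21.3 and 18.4 CPM in the CD5lo libraries and 1.51, 2.73, 3.27 and 5.48 CPM in the CD5hi libraries. Each Adamts14 value in CD5hi cells was below the lowest CD5lo value (log2 difference -2.67 ± 0.28, edgeR adjusted p = 3.64e-05). Dmbt1, a scavenger-receptor-family protein of mucosal surfaces, measured 8.14, 9.64, 7.505 and 7.28 CPM in CD5lo cells and 1.93, 2.97, 2.85 and 2.62 CPM in CD5hi cells. For Dmbt1 the groups did not overlap, and CD5hi was lower (log2 difference -1.65 ± 0.17, edgeR adjusted p = 2.98e-05).

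The CD5 difference was also set against that in the 8 CD4 libraries by an interaction test, in which 42 of 13554 genes passed (0.31%), 24 with a more positive difference in CD8 and 18 with a more negative one. Without the pair with B cell marker RNA 162 passed (1.2%), and single-library omissions gave 3 to 108 and 7 to 58. Cd5 itself differed by 1.31 ± 0.07 in CD8 and by 2.44 ± 0.07 in CD4 (interaction, edgeR adjusted p = 3.1e-05). Cd6 differed by 1.13 ± 0.07 and 2.01 ± 0.07 (interaction, edgeR adjusted p = 0.000388). Izumo1r, encoding the folate receptor 4 found on regulatory and anergic CD4 cells, measured 31.6, 29.05, 39.9 and 29.7 CPM in the CD5lo libraries and 79.3, 61.2, 56.3 and 65.7 CPM in the CD5hi libraries. Its difference was 1.01 ± 0.14 in CD8 and 2.43 ± 0.15 in CD4 (interaction, edgeR adjusted p = 0.00662). It and Ikzf2 were the 2 members that rose in a list of 11 CD4 and regulatory T cell markers, which summed to 104.7 to 199 CPM in CD5lo and 197 to 277 CPM in CD5hi CD8 libraries. Foxp3, which defines regulatory cells, was at 1.45 to 4.16 CPM in CD5lo and 1.47 to 8.31 CPM in CD5hi libraries, and the part of such cells in these differences was not tested. Without the pair with B cell marker RNA, which also held the most Cd4 RNA, 4 of the 11 rose and 3 fell, and without CD5hi replicate 4 alone 2 rose and 3 fell. Trib2, a pseudokinase that promotes degradation of its partners, had opposite signs: -0.25 ± 0.06 in CD8, where it measured 178, 168, 167 and 166 CPM in CD5lo cells and 143, 129, 143 and 155 CPM in CD5hi cells, and 0.28 ± 0.06 in CD4 (interaction, edgeR adjusted p = 0.0108). With the 8 CD8 libraries alone the Trib2 difference in CD8 cells had an edgeR adjusted p of 0.0629. Cd8b1 fell less in CD8 cells than in CD4 cells, where it was at 25.5 to 30.3 CPM in CD5lo and 7.499 to 8.42 CPM in CD5hi libraries (interaction, edgeR adjusted p = 1.6e-05). These 5 stayed called in all 8 single-library omissions. Tpi1 differed by 0.64 ± 0.07 in CD8 and 0.053 ± 0.07 in CD4 (interaction, edgeR adjusted p = 0.0229), and the adjusted p was 0.0662 without CD5hi replicate 2, 0.0561 without CD5lo replicate 1 and 0.0563 without CD5lo replicate 2.

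**Figure D5:**
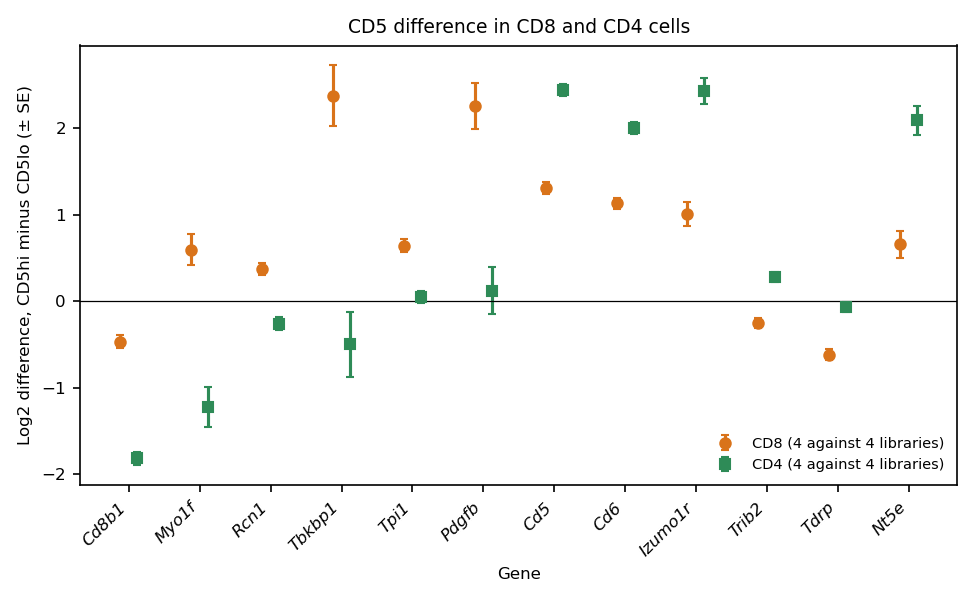
Log2 difference, CD5hi minus CD5lo, in CD8 (orange) and CD4 (green) cells with standard errors from the edgeR fit, for 12 genes named by the interaction rule. The differences of Cd5, Cd6, Izumo1r and Nt5e are larger in CD4 than in CD8 cells, and Trib2 has opposite signs.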

How the data were processed

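RNA from sorted lymph node T cells was extracted with TRIzol and RNeasy columns and made into TruSeq libraries with a version 2 or a stranded kit, per the labels' protocols, which do not say which library had which kit. The authors deposited 1 table of raw counts for 24421 genes in 16 libraries, without normalization. STAR 2.5.2a, featureCounts 1.4.6-p3, DESeq2 and the mouse build mm10 are named in the submitters' processing notes, but no source used here gives their settings or the strand option. All 16 columns matched a sample by name.

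Genes were kept by edgeR's filterByExpr (minimum count 10, minimum total 15), which left 13554. One edgeR 4.0.16 quasi-likelihood model with TMM scaling (R 4.3.3) held all 4 groups, with 12 residual degrees of freedom. CD5hi was tested against CD5lo in CD8 cells, and the CD8 difference against the CD4 difference, with Benjamini-Hochberg adjustment over all genes tested and a threshold of 0.05. Values after ± are standard errors from this model. CPM values are scaled by TMM. The model was tested on simulated data: 52.2% of 67 genes changed 1.5-fold, 73.1% of 67 changed 2-fold and 89.4% of 66 changed 4-fold were called, with 8 of 13354 unchanged genes. Simulated counts were drawn independently around 1 mean per gene, changed only for the altered genes in CD8 CD5hi libraries. No library was given extra B cell marker RNA or a link to its replicate number. These rates therefore need not hold in the real data. Between replicates of a CD8 group the real counts differed by a chi-square of 30.1 to 215 per degree of freedom.

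The gene lists and the comparison were chosen with earlier results of these data known. Genes were named by fixed rules: the sort genes, the members of each functional list with the smallest adjusted p, the most changed genes under and over 2-fold, the most abundant called genes, and interaction genes. Of these, the text describes mainly those whose call survived each omission of 1 library. Some genes that the rules name are not reported here. Other genes were chosen after their values were seen: Alas2, Klra1, Klra4 and Klra8, Ncr1, Foxp3 and the genes of the closing section. Promoter sequences are from RefSeq (GRCm38.p6) and gene positions from GENCODE vM21 (GRCm38). Alternatives were limma 3.58.1 voom, DESeq2 1.42.0, upper quartile or library size scaling, no filter, halved counts, the CD8 libraries alone, a replicate block, and omission of libraries.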

Additional observations from a re-analysis of the deposited data

Results flagged for a closer look

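Some named genes had 1 library far from the other 3 of its group, by the gap to the nearest value over the group's range. This held in 20 of 280 groups (7.14%), and chance alone marks about 1 in 20. CD5lo replicate 3 and CD5hi replicate 4, the pair with B cell marker RNA, held 5 each, and CD5lo replicate 2 and CD5hi replicate 3 held 0.

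In CD5lo replicate 3, Chek1 was at 1.95 CPM against 0.915 to 1.04 in the other 3, Fabp5 at 7.71 against 4.93 to 5.22, Lag3 at 0.724 against 0.132 to 0.176 and Sgms1 at 44.9 against 37.4 to 38.5. Pdk1 was low there, at 290 CPM against 333 to 338. In CD5hi replicate 4, Cyp2s1 was at 7.37 CPM against 3.37 to 4.02, Grm6 at 3.74 against 1.10 to 1.28 and Prdm1 at 1.65 against 0.669 to 0.763. Fut7, at 1.94 against 2.88 to 2.96, and Ikzf2, at 26.2 against 46.1 to 49.8, were low in that library. For all 5 genes CD5hi replicate 4 lay nearest to the CD5lo values.

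In CD5lo replicate 1, Ccr9 was at 521 CPM against 417 to 426, Ctsw at 635 against 480 to 495, Ripk3 at 63.1 against 59.6 to 60.2 and Trib2 at 178 against 166 to 168. In CD5lo replicate 4, Bmf was at 13.3 CPM against 20.7 to 21.1 and Shmt1 at 17.6 against 15.5 to 15.6. In CD5hi replicate 1, B3gnt5 was at 27.2 CPM against 19.5 to 20.5 and Hopx at 61.9 against 34.4 to 36.1. In CD5hi replicate 2, Ssbp2 was at 21.6 CPM against 24.3 to 24.8 and Tnfrsf9 at 15.9 against 12.6 to 12.9.

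The CD5 difference itself differed between CD8 and CD4 cells for 10 of the named genes, by the edgeR interaction test. The CD8 minus CD4 value on the log2 scale was -1.13 for Cd5, -0.87 for Cd6, -1.42 for Izumo1r, -0.54 for Trib2 and -0.63 for Ephx1. It was 1.35 for Cd8b1, 2.01 for Stmn1, 0.69 for Tacc2, 0.60 for Smyd2 and 0.59 for Tpi1. Without CD5lo replicate 2 or without CD5hi replicate 2, only 3 of all genes passed with a more positive difference in CD8. Not all of the more positive genes named here can therefore have stayed called. Single-library values of the interaction are not reported here for Stmn1, Tacc2, Smyd2 and Ephx1. The edgeR adjusted p for Smyd2 was 0.0391, and 0.0542 without the pair with B cell marker RNA.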

How the results depend on the processing

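Of 139 called genes named in the text, 2502 values were recomputed, of which 2488 kept direction and call, 14 kept direction and lost the call and 0 reversed. Most of these genes were named because their calls survived the omissions of libraries, which are among the settings recomputed. Their stability in those settings was therefore fixed by the choice. Of all called genes, 472 of the 806 that rose and 206 of the 476 that fell stayed called whichever library was left out. Leaving out each library in turn gave 518 to 948 genes higher and 252 to 699 lower, and 3 to 108 more positive and 7 to 58 more negative in the interaction test. Fitted to the 8 CD8 libraries alone, 550 genes rose and 251 fell. In the interaction test, 113 and 49 genes passed without the 2 libraries with B cell marker RNA, 89 and 45 without these and CD4 CD5lo replicate 3, and 129 and 89 with DESeq2, against 24 and 18. The causes were not tested. With the replicate block, 1813 genes rose and 1577 fell, and 205 and 174 passed the interaction test. Counts for gene lists are from the model without this block unless stated. The deviations of same-numbered CD8 libraries correlated across genes at 0.562, 0.255, 0.0274 and -0.0401. CD5lo replicates 1 and 2 correlated best with their own number. CD5lo replicate 3 correlated best with CD5hi replicate 4 (0.426), but these are the pair with B cell marker RNA. For CD5lo replicate 4 the highest value was 0.049, with CD5hi replicate 3. Whether equal numbers mark a shared origin cannot be told from these values, and the main model does not use the numbers. Voom, both other scalings, no filter and halved counts gave 726 to 847 genes higher and 360 to 508 lower, and DESeq2 1075 and 708. Of counts from 1 to 9, 73.9% to 80.5% were even, against 49.2% to 51.0% of counts of 1000 or more, and the cause was not tested.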

Other observations

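The following genes were chosen after their values were seen. Genes of cartilage and fetal growth were high in 2 CD5lo libraries. Col2a1, the main collagen of cartilage, was at 0.145, 0.351, 39.6 and 15.01 CPM in CD5lo replicates 1 to 4, and at no more than 0.355 CPM in the 14 libraries other than CD5lo replicates 3 and 4. Acan, the cartilage proteoglycan aggrecan, was at 4.97 and 1.59 CPM in those 2 libraries and at most at 0.107 CPM in the 14 others. Col9a1, another cartilage collagen, was at 2.70 and 1.67 CPM against at most 0.0259, and Sox9, the transcription factor of cartilage cells, at 0.724 and 0.108 against at most 0.0237. The imprinted genes Igf2 and H19 were at 5.46 and 2.58 CPM and at 4.00 and 1.42 CPM, against at most 0.595 and 0.0254. Col2a1 was called lower in CD5hi cells although the groups overlapped (log2 difference -5.93 ± 1.34, edgeR adjusted p = 0.00997), and not by voom (adjusted p = 0.362) or with the CD8 libraries alone (edgeR adjusted p = 0.0611).

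Genes below the level at which the rules name genes also changed. Chl1, a neural adhesion protein, was at 0.0793, 0.0469, 0.278 and 0 CPM in CD5lo and 1.81, 2.16, 1.32 and 0.483 CPM in CD5hi libraries (log2 difference 3.88 ± 0.67, edgeR adjusted p = 0.00156). Nrgn, the neuronal calmodulin-binding protein neurogranin, was at 0.0264 to 0.181 CPM in CD5lo and 0.90 to 1.92 CPM in CD5hi libraries (log2 difference 4.08 ± 0.73, edgeR adjusted p = 0.00227). Pcsk1, a prohormone convertase, was at 1.82, 1.01, 0.794 and 1.13 CPM in CD5lo and 0.0803 to 0.136 CPM in CD5hi libraries (log2 difference -3.51 ± 0.66, edgeR adjusted p = 0.0029).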
